A study of Homo sapiens with 24 samples.

Results

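HCC1806 is an established line of triple-negative breast cancer, a class without oestrogen receptor, progesterone receptor or HER2, and it has the features of basal epithelium. The comparison described here set 3 HCC1806 populations with a doubled genome beside the parental aneuploid population they came from, and asked which transcripts all 3 routes of doubling moved alike. Membership followed the labels alone and took 12 of the 24 TAGseq libraries of the series: 3 of the parental control, 3 of cells doubled by fusion, 3 of cells doubled by mitotic slippage and 3 of cells doubled by cytokinesis failure. The other 12 libraries hold the same 4 groups in MDA-MB-231, a triple-negative line of mesenchymal character, and serve below as a contrast. Doubled cells had been sorted by flow cytometry and expanded, the control had only been kept in culture, and all libraries were made after 48 hours of growth in wells with no further treatment. Bulk RNA does not separate fewer cells of a kind from less RNA in each. Each route is represented by 1 derived population, so a route and its population coincide, and sorting, expansion and separate time in culture cannot be told apart from the doubling. Replicates are labelled biological, but they are samples of 1 population, so the p-values below measure spread within populations.

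Doubling of the whole genome gives a cell a surplus of chromosomes and, at first, surplus centrosomes. In fusion, separate cells become one; in slippage, a cell leaves mitosis without dividing; in failed cytokinesis, the chromosomes part but the cell body does not. Doubled cells are known for long, error-prone mitoses, for dependence on the mitotic kinesin KIF18A, and for arrest through CDKN1A or LATS2 where those pathways work. In basal breast cancer cells, ligands of the EGF receptor act back on the cells that shed them, and the ERK cascade then induces immediate early transcription factors, proteases and its own phosphatases.

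Library totals of estimated counts ran from 3060622 to 3811159 in the controls and from 3167597 to 4030297 in the doubled libraries (exact permutation test over 12 libraries, two-sided p = 0.682). Genes detected did not separate them either (14696 to 15117 against 14713 to 15231, exact permutation p = 0.895). The 50 most abundant genes took 15.02% to 15.91% of the counts in the controls and 15.46% to 16.10% in the doubled libraries (exact permutation p = 0.132, the smallest possible being 0.0045, and 0.395 when adjusted over these 3 checks). All 14 markers of basal epithelium were expressed at tested levels. Their summed level was 2603 to 2678 CPM (counts scaled to a common library total after TMM normalisation) in the controls and 1993 to 2524 CPM in the doubled libraries, and 6 of the 14 fell while 1 rose. Fibroblast markers summed to 45.9 to 58.3 CPM in the controls and 28.1 to 56.9 CPM in the doubled libraries, with COL1A2 and PDGFRA at 0 counts in all 12. Immune markers, nearly all of it CD68, summed to 35.8 to 38.0 CPM and 25.3 to 38.5 CPM, and CD3D, CD3E, MS4A1, TYROBP and NKG7 had 0 counts throughout. Endothelial markers never exceeded 2.31 CPM in sum. Of the markers of an MDA-MB-231 type cell, SPARC had 0 counts and VIM 25 counts over the 12 libraries. Their sum, mostly CAV1, was 1009 to 1059 CPM in the controls and 1013 to 1090 CPM in the doubled libraries.

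The equally weighted mean of the 3 doubled populations differed from control at 1111 of 11467 tested genes (9.69%; edgeR quasi-likelihood test, Benjamini-Hochberg adjusted p below 0.05, here named a call). Of these, 512 rose (4.46%) and 599 fell (5.22%), and 49 changed by at least 2-fold (0.427%). The median change over all tested genes was -0.0034 on the log2 scale. Taken singly, fusion gave 1247 calls (10.9%, with 5.33% of tested genes higher and 5.55% lower), slippage 382 (3.33%, with 1.53% higher and 1.81% lower) and cytokinesis failure 1950 (17%, with 8.37% higher and 8.63% lower). All 3 populations and their mean were called in 1 direction at 148 genes (1.29%), 78 of them higher (0.68%) and 70 lower (0.61%). The 3 contrasts use the same 3 control libraries, so these 148 are a description and not 3 separate sightings. Without control replicate 1 the mean gave 721 calls and the shared genes numbered 90, and the shared genes numbered 95 without control replicate 2 and 81 without slippage replicate 3. In each of the alternatives listed at the end, every one of the 148 that was tested kept its sign in the mean.

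Shared changes were small for the most part. The 78 higher genes had a median log2 fold change of 0.30 in the mean (0.14 to 1.12), and 2 reached 2-fold. The 70 lower genes had a median of -0.50 (-3.01 to -0.17), and 12 reached 2-fold. For 70 of the 78 and 68 of the 70, all 9 doubled libraries lay on 1 side of all 3 controls, against 539 of all tested genes (4.7%, with 2.41% above and 2.29% below). The calls had chosen these genes, so that separation is no further evidence. Among the mean calls, 182 of the higher and 232 of the lower genes were called that way in 2 populations, 239 and 287 in 1, and 13 and 10 in none. The plot of shared genes by population sets the 3 changes of each gene beside each other.

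**Figure D1:**
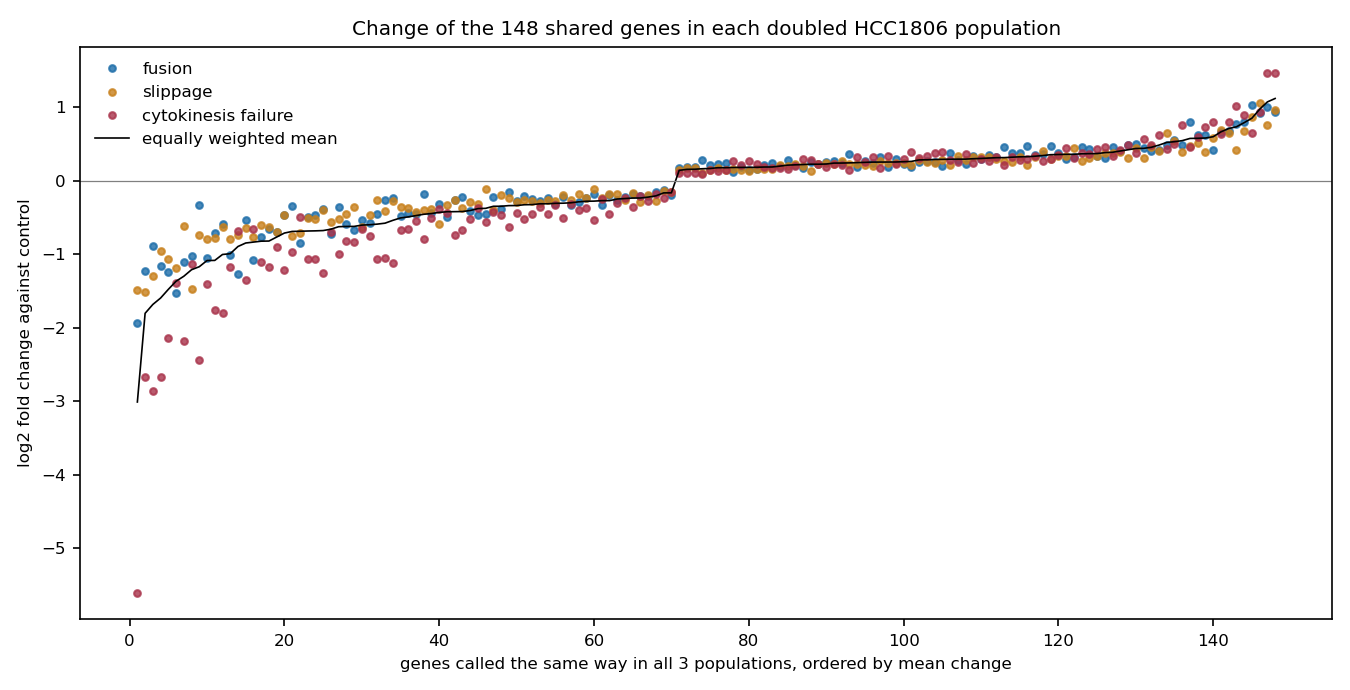
Each of the 148 genes called the same way in all 3 doubled HCC1806 populations is placed along the horizontal axis in order of its mean change, with the log2 fold change against control of each population on the vertical axis and the mean as a line. The points spread most at the lower end, where cytokinesis failure lies lowest for 55 of the 70 falling genes.

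The largest shared falls by the naming rule were in EGR1, an immediate early transcription factor, SPANXD, a cancer-testis antigen, DHRS9, a retinol dehydrogenase, and G0S2, an inhibitor of fat breakdown. EGR1 (chromosome 5, 138465479 to 138469303, GRCh38) stood at 13.9, 10.9 and 8.02 CPM in the controls, 2.36, 5.81 and 5.79 after fusion, 3.54, 2.23 and 5.48 after slippage, and 1.74, 2.61 and 0.741 after cytokinesis failure. The lowest control lay above the highest doubled library, and the mean fell by 1.80 ± 0.23 on the log2 scale (± is the standard error, adjusted p = 1.31e-08). G0S2 stood at 23.7, 27.5 and 22.8 CPM in the controls, 12.1, 9.0 and 10.1 after fusion, 9.26, 13.4 and 12.7 after slippage, and 4.23, 5.74 and 6.67 after cytokinesis failure. Control and doubled libraries did not overlap, and the mean change was -1.48 ± 0.14 (adjusted p = 9.19e-15). DHRS9 changed by -1.60 ± 0.15, from 20.1 to 20.7 CPM in the controls to 2.49 to 11.5 CPM in the doubled libraries. SPANXD changed by -1.68 ± 0.23 and was at 0 counts in cytokinesis failure replicate 3. SPANXD has near-identical copies on the X chromosome, so its reads may be split among them.

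Further falls shared by all 3 populations were smaller. The elastase inhibitor elafin (PI3, -1.37 ± 0.23), the interleukin receptor chain IL20RB (-0.99 ± 0.15) and the tripartite motif gene TRIML2 (-1.21 ± 0.28) fell. TRIML2 no longer passed once control replicate 2 was left out (adjusted p = 0.0807 for a change of -0.93). PTGS2, the inducible prostaglandin synthase (chromosome 1, 186671791 to 186680423), stood at 22.9, 22.9 and 16.8 CPM in the controls, 7.67, 11.6 and 9.45 after fusion, 14.4, 14.7 and 11.5 after slippage, and 4.48, 4.96 and 4.20 after cytokinesis failure. Slippage kept the highest doubled values, still below every control, and the mean changed by -1.30 ± 0.15 (adjusted p = 2.06e-11). PTGS2 was the single member of 10 tested genes of prostaglandin synthesis and reception that fell, and 1 other rose.

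The largest shared rises were in BCAM, a laminin receptor of epithelial cells, and SNCG, gamma-synuclein. BCAM (chromosome 19, 44809059 to 44821421) stood at 12.8, 9.61 and 9.83 CPM in the controls, 19.5, 24.7 and 17.7 after fusion, 21.5, 22.9 and 18.7 after slippage, and 35.1, 29.2 and 25.0 after cytokinesis failure. Every doubled library exceeded every control, and the mean rose by 1.12 ± 0.14 (adjusted p = 3.26e-09). SNCG stood at 30.7, 24.5 and 27.7 CPM in the controls, 64.9, 48.5 and 53.3 after fusion, 43.3, 47.8 and 49.9 after slippage, and 78.9, 84.0 and 67.9 after cytokinesis failure, a mean rise of 1.07 ± 0.09 (adjusted p = 7.75e-16). APOBEC3B, a cytidine deaminase that edits single-stranded DNA, stood at 4.08, 4.31 and 5.17 CPM in the controls and at 7.30 to 10.4 CPM in the 9 doubled libraries, and rose by 0.97 ± 0.21 (adjusted p = 0.000532). Its change was 0.91 after fusion, 1.06 after slippage and 0.94 after cytokinesis failure. Among the 30 tested genes of cytosolic DNA sensing and interferon response, APOBEC3B and SAMHD1 alone rose, none fell, and the list median was 0.10. SAMHD1 (0.50 ± 0.16) no longer passed when control replicate 2, control replicate 3 or cytokinesis failure replicate 1 was left out (adjusted p from 0.0518 to 0.148).

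SOX2, a transcription factor of stem and squamous progenitor cells, rose by 0.85 ± 0.16 (adjusted p = 7.44e-05), from 7.29 to 8.54 CPM in the controls to 11.7 to 18.0 CPM in the doubled libraries. HSPG2, the basement membrane proteoglycan perlecan, rose by 0.79 ± 0.16, and its call was lost on the scale of deposited TPM, as were those of SPANXD, PI3 and TRIML2. The noncoding RNA UCA1 (0.58 ± 0.06), the fructose kinase KHK (0.66 ± 0.15), GNB1L (0.57 ± 0.12), ZNF704 (0.60 ± 0.08) and the pseudogene CRYBB2P1 (0.71 ± 0.16) completed the risers of the rule with ELF3 and AGR2, described with the epithelial genes. CRYBB2P1 resembles its parent gene CRYBB2 and its value is uncertain. The 78 shared risers had a median GC content of 58.4% and a median transcript length of 2411 bases, against 47.9% and 3673 bases over all tested genes and 49.8% and 3523 bases for the 70 shared falls. In limma on log2 CPM, 133 of the 148 shared calls remained, and 106 remained when each library was also corrected for GC content and length. With the correction 144 of the 146 that could be tested were still called in the mean. Shared risers then numbered 84, against 83 in limma without it, and shared falls 51 against 59. Of all mean calls of the edgeR fit, 1054 remained in limma and 875 with the correction. The shared risers also had a higher median log2 CPM, 7.06 against 4.82 over all tested genes. The part of GC content in the rises was not tested beyond that correction.

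**Figure D2:**
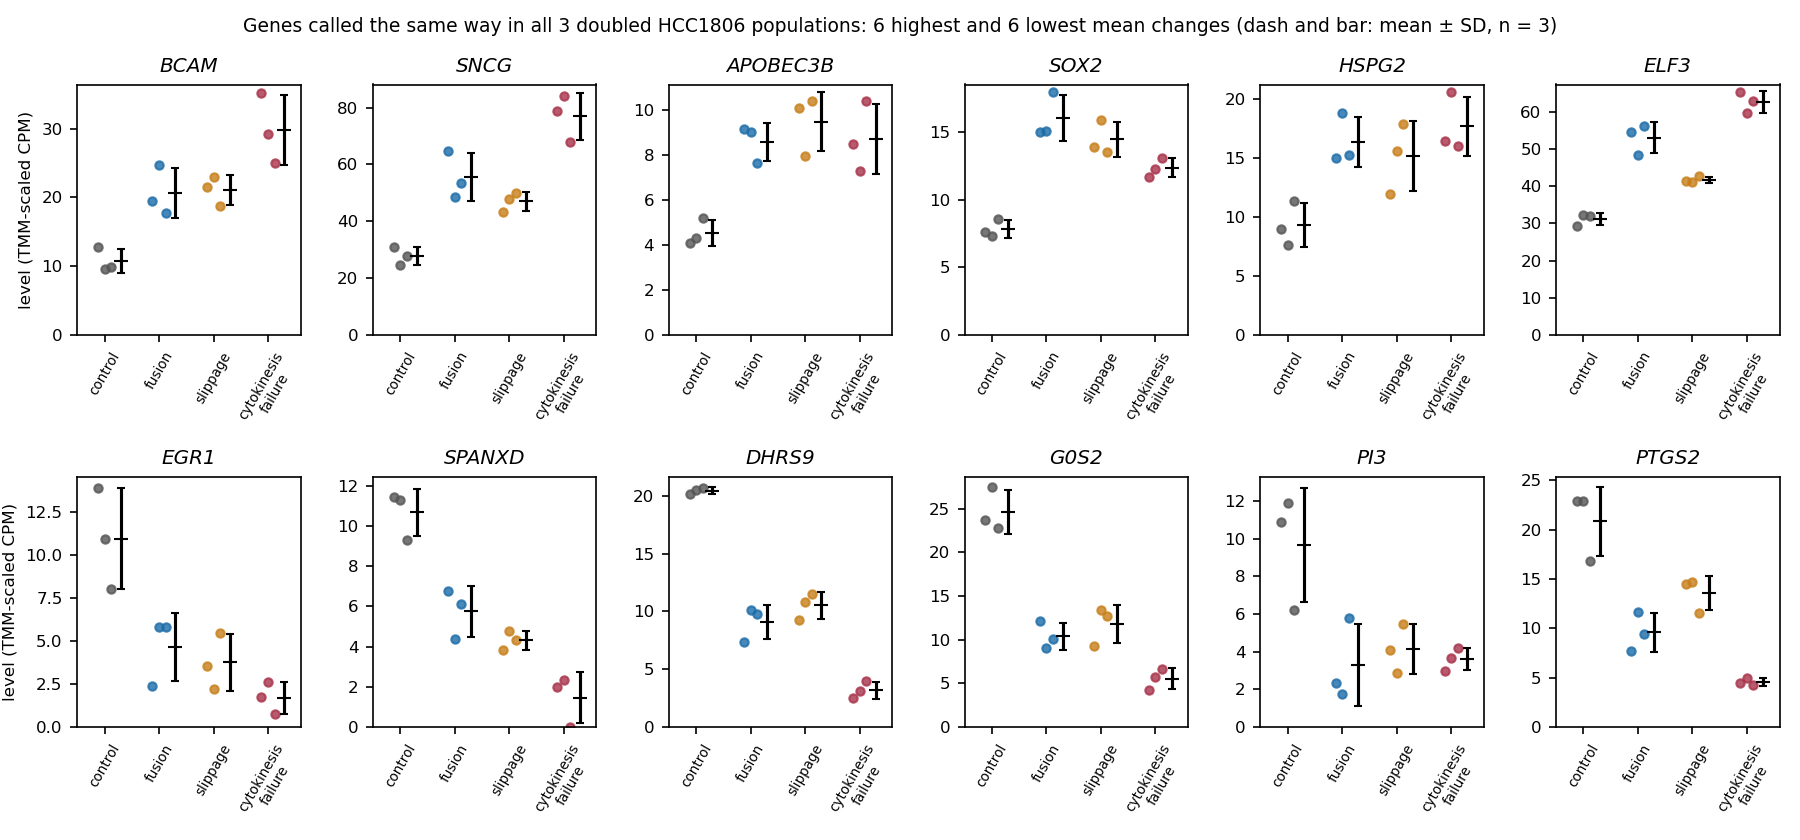
Levels in TMM-scaled CPM (vertical axes, each from 0) are plotted for every HCC1806 library by population for the 6 shared genes with the highest and the 6 with the lowest mean change by the naming rule, points being libraries and bars the mean ± SD of 3. No control point overlaps a doubled point in any panel, and cytokinesis failure has the lowest mean for EGR1, SPANXD, DHRS9, G0S2 and PTGS2.

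Promoter sequences of these genes are shown because AP-1 and NF-kB are known to act on many inducible genes, and the cell cycle homology region on mitotic genes. Windows of 250 bases before to 50 bases after the annotated start were taken from RefSeq (GRCh38.p14) and searched on both strands for TGANTCA (AP-1), GGGNNTTCC (NF-kB), and TTTGAA together with CCAAT. The 6 windows below are all those with a match among the 12 risers, the 12 falling genes and 4 mitotic genes of the naming rule, of which 20 had a window, and capitals mark the matches. The windows of EGR1 and PTGS2 held no match.
SPANXD: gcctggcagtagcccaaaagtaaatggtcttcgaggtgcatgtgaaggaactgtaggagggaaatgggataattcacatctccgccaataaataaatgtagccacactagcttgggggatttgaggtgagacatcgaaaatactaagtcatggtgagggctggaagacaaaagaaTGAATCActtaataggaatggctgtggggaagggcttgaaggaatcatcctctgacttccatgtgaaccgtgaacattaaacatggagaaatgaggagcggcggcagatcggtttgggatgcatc
TRIML2: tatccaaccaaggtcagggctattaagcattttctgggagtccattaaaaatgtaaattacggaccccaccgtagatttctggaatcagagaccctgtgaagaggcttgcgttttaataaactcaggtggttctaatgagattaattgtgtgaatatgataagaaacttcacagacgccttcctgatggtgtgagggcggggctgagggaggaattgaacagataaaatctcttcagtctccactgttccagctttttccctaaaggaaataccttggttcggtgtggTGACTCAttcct
SERPINB2: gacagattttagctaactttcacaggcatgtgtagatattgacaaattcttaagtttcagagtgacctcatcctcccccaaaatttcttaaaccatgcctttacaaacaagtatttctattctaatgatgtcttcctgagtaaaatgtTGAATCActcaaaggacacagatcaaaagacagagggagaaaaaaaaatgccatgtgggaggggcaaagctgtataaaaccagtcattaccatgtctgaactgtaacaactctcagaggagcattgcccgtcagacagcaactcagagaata
SOX2: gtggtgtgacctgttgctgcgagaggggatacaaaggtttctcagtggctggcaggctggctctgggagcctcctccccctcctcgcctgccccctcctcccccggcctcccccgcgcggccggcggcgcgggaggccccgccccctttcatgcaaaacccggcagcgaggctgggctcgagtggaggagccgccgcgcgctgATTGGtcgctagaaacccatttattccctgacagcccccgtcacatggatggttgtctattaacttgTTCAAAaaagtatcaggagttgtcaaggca
ELF3: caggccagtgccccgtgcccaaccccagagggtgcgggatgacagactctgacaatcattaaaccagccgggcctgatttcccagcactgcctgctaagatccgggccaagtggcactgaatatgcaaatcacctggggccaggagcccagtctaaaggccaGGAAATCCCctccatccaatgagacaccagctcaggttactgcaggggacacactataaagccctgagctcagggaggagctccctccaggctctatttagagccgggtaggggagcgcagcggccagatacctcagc
DLGAP5: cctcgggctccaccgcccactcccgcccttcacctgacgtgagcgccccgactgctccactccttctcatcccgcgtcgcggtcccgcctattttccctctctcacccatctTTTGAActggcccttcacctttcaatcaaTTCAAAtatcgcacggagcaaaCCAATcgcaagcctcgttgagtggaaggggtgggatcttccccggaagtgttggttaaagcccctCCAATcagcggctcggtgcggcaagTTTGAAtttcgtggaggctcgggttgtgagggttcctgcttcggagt

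The SPANXD window (chromosome X, 141698690 to 141698989, minus strand) holds an AP-1 match beginning 75 bases before the start, the SERPINB2 window (chromosome 18, 63887455 to 63887754, plus strand) one beginning 102 bases before it, and the TRIML2 window (chromosome 4, 188109554 to 188109853, minus strand) one beginning 38 bases after it. The ELF3 window (chromosome 1, 202010337 to 202010636, plus strand) holds the NF-kB letters 88 bases before the start. The SOX2 window (chromosome 3, 181711675 to 181711974, plus strand) holds CCAAT 47 bases before and TTTGAA 20 bases after the start. The DLGAP5 window (chromosome 14, 55191536 to 55191835, minus strand) holds TTTGAA at 138 and 109 bases before and 3 bases after the start, and CCAAT at 87 and 22 bases before it. AP-1 letters were in 8 of the 58 windows found for shared falling genes (13.8%), 2 of 60 for shared rising genes (3.33%) and 401 of 9144 for all tested genes (4.39%). NF-kB letters were in 8.62%, 8.33% and 8.14% of the same windows. TTTGAA with CCAAT was in 31 of 55 windows of the mitosis list (56.4%) against 4.08% over all tested genes. These matches describe letters and no binding.

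Of 12 tested receptors, ligands and inhibitors of the EGF receptor family, 5 fell in the mean and none rose (list median -0.14), and AREG alone fell in all 3 populations. For this and each list below, the shares over all tested genes were 5.22% lower and 4.46% higher in the mean. The list median was -0.32 after fusion, -0.10 after slippage and -0.02 after cytokinesis failure, where 5 fell and 2 rose. AREG, amphiregulin, stood at 146, 152 and 134 CPM in the controls, 93.8, 115 and 104 after fusion, 99.4, 104 and 110 after slippage, and 55.3, 66.2 and 64.5 after cytokinesis failure. Fusion and slippage overlapped each other, cytokinesis failure lay lower, and the mean fell by 0.71 ± 0.06 (adjusted p = 1.88e-18). Epiregulin (EREG, -0.63 ± 0.06), transforming growth factor alpha (TGFA, -0.43 ± 0.07) and epigen (EPGN, -0.77 ± 0.16) fell in the mean, with all 9 doubled libraries below the controls. Their slippage changes of -0.22, -0.26 and -0.43 were not called.

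Feedback genes of the ERK cascade behaved unevenly across routes. Of 19 tested, 8 fell and 2 rose in the mean (median -0.26), and the median was -0.18 after fusion, -0.23 after slippage and -0.48 after cytokinesis failure. DUSP6, the cytoplasmic ERK phosphatase, stood at 87.1, 101 and 94.1 CPM in the controls, 85.5, 90.6 and 90.5 after fusion, 66.4, 63.1 and 67.5 after slippage, and 22.9, 37.3 and 32.1 after cytokinesis failure. Its fusion libraries overlapped the controls, and the mean fell by 0.73 ± 0.07, with changes of -0.08 after fusion (not called), -0.51 after slippage and -1.61 after cytokinesis failure. The nuclear ERK phosphatase DUSP5 (-0.68 ± 0.11) and PHLDA1, a pleckstrin-homology protein induced by ERK (-0.46 ± 0.04), fell in all 3. DUSP4 fell in the mean (-0.66 ± 0.12), but neither its fusion change of -0.23 nor its slippage change of -0.38 was called.

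The list of immediate early and AP-1 genes had 9 that fell and 1 that rose among 20 tested (median -0.22). Its members EGR1, MYC, FOSL1 and KLF6 were lower in all 3 populations. MYC, a driver of growth and cell cycle entry, stood at 105, 119 and 106 CPM in the controls, 87.3, 90.8 and 93.9 after fusion, 80.6, 78.7 and 85.9 after slippage, and 52.8, 53.5 and 51.9 after cytokinesis failure, a mean fall of 0.58 ± 0.06 (adjusted p = 8.66e-14). The 3 populations differed from each other as well (adjusted p = 2.54e-14 for differences among them). FOSL1, an AP-1 subunit, fell by 0.54 ± 0.06, with -0.23 after fusion, -0.27 after slippage and -1.12 after cytokinesis failure. IER3, an early survival gene, fell by 0.42 ± 0.04 in the mean, and its fusion change of -0.08 was not called. The NF-kB list was less uniform: 4 of 21 fell, 1 rose, and none was shared by all 3 populations. TNFAIP3, the ubiquitin-editing inhibitor of NF-kB, changed by -2.37 after cytokinesis failure, while its changes of -0.45 after fusion and -0.20 after slippage were not called.

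Matrix proteases and the urokinase system fell, with 8 of 25 tested members lower, none higher, and 4 lower in all 3 populations (median -0.18). SERPINB2, a urokinase inhibitor, stood at 45.2, 45.7 and 45.0 CPM in the controls, 29.2, 38.6 and 39.9 after fusion, 26.1, 24.5 and 30.6 after slippage, and 6.72, 9.65 and 8.65 after cytokinesis failure. The shared fall was therefore of unequal size, with -0.34, -0.74 and -2.44 in that order and a mean of -1.17 ± 0.10 (adjusted p = 1.48e-16). Urokinase itself (PLAU) fell by 0.69 ± 0.09, and tissue factor (F3), the starter of clotting, by 0.38 ± 0.03. The collagenase MMP1 fell in the mean by 1.01 ± 0.06, yet stood at 268, 275 and 274 CPM after fusion against 212, 251 and 245 in the controls, and fell only after slippage (-0.99) and cytokinesis failure (-2.26) in the tests of single populations.

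Epithelial genes were divided. Of 36 tested basal and squamous keratinocyte genes, 13 fell and 3 rose in the mean (median -0.12). Falls and rises there numbered 9 and 4 after fusion, 10 and 3 after slippage, and 12 and 5 after cytokinesis failure. Of 36 tested luminal and simple epithelial genes, 7 rose and 1 fell in the mean (median 0.06). After fusion that list was evenly divided, with 6 higher and 6 lower (median 0.006). Slippage had 6 higher and none lower (median 0.05), and cytokinesis failure 14 higher and 1 lower (median 0.17). KRT14, a keratin of basal cells (chromosome 17, 41582279 to 41586895), stood at 164, 151 and 154 CPM in the controls, 104, 105 and 104 after fusion, 96.9, 101 and 107 after slippage, and 50.3, 44.3 and 40.5 after cytokinesis failure. Fusion and slippage were alike in level and cytokinesis failure lower, with a mean of -1.005 ± 0.05 (adjusted p = 1.09e-28). Laminin-332 anchors basal cells to the basement membrane, and its chain LAMB3 (-0.69 ± 0.04) fell in all 3 populations. KRT6A fell in the mean (-0.64 ± 0.04), but its fusion libraries of 258 to 278 CPM overlapped the controls of 273 to 278 CPM. Keratin genes have near-identical relatives and pseudogenes, so their values are uncertain to that extent.

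On the rising side, ELF3, an epithelial transcription factor, stood at 29.4, 32.2 and 32.1 CPM in the controls, 54.6, 48.5 and 56.4 after fusion, 41.4, 41.1 and 42.7 after slippage, and 65.5, 59.7 and 63.0 after cytokinesis failure, a mean rise of 0.73 ± 0.08 (adjusted p = 8.29e-11). AGR2, a protein disulphide isomerase of secretory epithelium, rose by 0.58 ± 0.06, with controls at 82.5 to 85.7 CPM and doubled libraries at 109 to 150 CPM. The simple keratins KRT7 (0.18 ± 0.03) and KRT19 (0.21 ± 0.03) rose in the mean, KRT7 in all 3 populations and KRT19 not after slippage (0.08, not called). The direction was not uniform over keratinocyte genes: KRT13, of suprabasal cells, and TRIM29, a basal marker, were among those that rose in all 3, and are named after their values were seen. So is LAMA5, a laminin chain of basement membrane that rose in all 3 (0.54 ± 0.07). The basal keratin KRT5 changed by 0.012 and the laminin receptor chain ITGB4 by 0.11, neither called. Of 38 integrins, laminins and adhesion genes, 9 fell and 2 rose, including the hyaluronan receptor CD44 (-0.33 ± 0.03) and the laminin receptor chain ITGA6 (-0.31 ± 0.03), both lower in all 3. Of 14 tested mesenchymal genes, 5 fell and none rose, fibronectin (FN1, -0.90 ± 0.14) among them. The summed basal markers given above moved with these falls, which count some of the same genes.

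**Figure D3:**
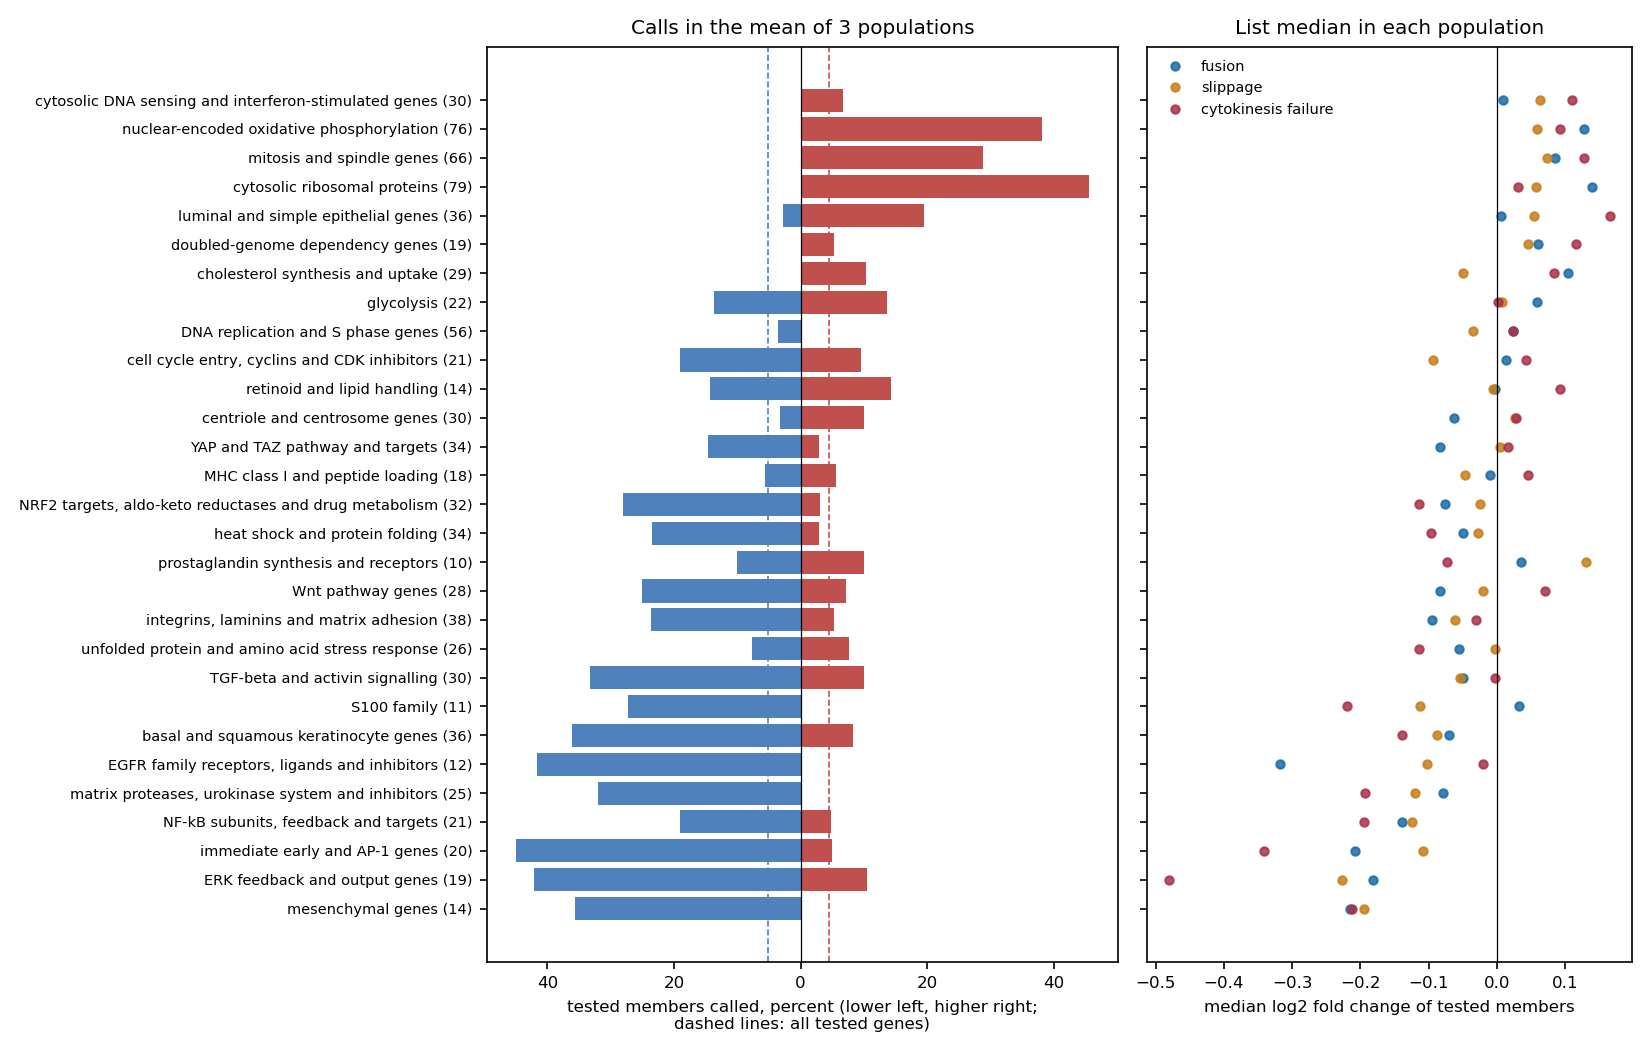
Shown are the fixed gene lists reported here that have at least 10 tested members (number tested in brackets). The left panel gives the percent of members called lower (left, blue) and higher (right, red) in the mean of the 3 doubled HCC1806 populations. Dashed lines mark 5.22% and 4.46% for all tested genes. The right panel gives the list's median log2 fold change in each population. Ribosomal protein, oxidative phosphorylation and mitosis lists have calls on the higher side only, and the immediate early, ERK feedback, EGF family and protease lists lie mainly on the lower side.

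CDKN1A, the p21 inhibitor of cyclin-dependent kinases, was lower in all 3 doubled populations. It stood at 47.3, 54.7 and 48.1 CPM in the controls, 30.7, 32.5 and 31.7 after fusion, 34.0, 29.3 and 32.9 after slippage, and 20.9, 19.6 and 25.2 after cytokinesis failure. No doubled library reached the controls, and the mean fell by 0.82 ± 0.09 (adjusted p = 2.20e-12). Cyclin E1 (CCNE1), which starts S phase, fell by a like amount in each route, -0.49, -0.34 and -0.44 (mean -0.42 ± 0.07, adjusted p = 6.80e-06). Of 56 tested replication genes 2 fell, CCNE1 and the checkpoint mediator CLSPN (-0.24 ± 0.04), and none rose.

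Mitotic genes called in the mean rose by small amounts. Of 66 tested mitosis and spindle genes, 19 rose and none fell in the mean (median 0.09), and 6 rose in all 3 populations. Over all tested genes, 4.46% rose in the mean and 0.68% in all 3. Singly, 13 rose and 3 fell after fusion, 10 rose and none fell after slippage, and 26 rose and 3 fell after cytokinesis failure. Of all tested genes, 5.33% rose after fusion, 1.53% after slippage and 8.37% after cytokinesis failure, so the routes differed in calls generally. Differences among the populations were called at 19 of the 66, against 20.2% of all tested genes. CCNB1, the mitotic cyclin B1, stood at 240, 242 and 216 CPM in the controls, 263, 265 and 268 after fusion, 268, 268 and 284 after slippage, and 289, 296 and 294 after cytokinesis failure. All doubled libraries lay above the controls, with a mean rise of 0.25 ± 0.04 (adjusted p = 1.53e-06). The spindle assembly factor DLGAP5 (0.29 ± 0.05), the kinetochore protein NDC80 (0.28 ± 0.05) and the checkpoint kinase BUB1 (0.31 ± 0.06) rose in all 3 populations. DLGAP5 changed by 0.23 after fusion, 0.28 after slippage and 0.37 after cytokinesis failure, and for these 3 genes differences among populations were not called (adjusted p from 0.143 to 0.676). None of these 4 rises passed when a change of at least 1.2-fold was required.

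Of the genes tied to the doubled state itself, most were not called. KIF18A stood at 53.3, 56.4 and 58.7 CPM in the controls, 64.6, 57.5 and 67.7 after fusion, 76.0, 65.6 and 64.6 after slippage, and 59.3, 66.8 and 58.6 after cytokinesis failure. The ranges overlapped, and its mean change of 0.20 ± 0.07 missed the threshold (adjusted p = 0.0590), although slippage alone was called (0.30). It passed without fusion replicate 2 (adjusted p = 0.0432) or slippage replicate 3 (adjusted p = 0.0493), without the cytokinesis failure population (adjusted p = 0.0494), and in limma on log2 CPM corrected for GC content and length (adjusted p = 0.0391). PLK4, the centriole duplication kinase (-0.21 ± 0.12), LATS2 of the Hippo pathway (-0.20 ± 0.14), the centrosome-clustering kinesin KIFC1 (0.05 ± 0.07) and MDM2 (-0.16 ± 0.06) were not called, MDM2 passing without fusion replicate 1 (adjusted p = 0.04999) or the whole fusion population (adjusted p = 0.0418), and CCND2 and CDKN2A were too low to be tested. Of 19 tested dependency genes of doubled cells, 1 rose, the checkpoint kinase TTK (0.32 ± 0.07). Of 30 centrosome genes, 3 rose and 1 fell, and CNTROB, a daughter-centriole protein, rose in all 3 populations (0.36 ± 0.08). The CNTROB call in the mean was lost on both scales of deposited TPM and in the fit of all 24 libraries.

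Many respiratory chain genes of the nucleus rose. Of 76 tested members, 29 rose and none fell in the mean (median 0.09), and 11 rose in all 3. Over all tested genes, 4.46% rose in the mean and 0.68% in all 3. Singly, 31 rose and 1 fell after fusion, 12 rose and none fell after slippage, and 26 rose and 2 fell after cytokinesis failure. The shares of all tested genes that rose were 5.33%, 1.53% and 8.37% in that order. NDUFV1, the flavoprotein of complex I (chromosome 11, 67606936 to 67612554), stood at 86.8, 84.5 and 89.2 CPM in the controls, 111, 122 and 113 after fusion, 112, 116 and 115 after slippage, and 117, 124 and 107 after cytokinesis failure. The routes gave nearly one value, 0.41, 0.39 and 0.41, and the mean rose by 0.40 ± 0.06 (adjusted p = 4.29e-08). NDUFB10 of complex I (0.33 ± 0.04), ATP5E of ATP synthase (0.19 ± 0.03) and COX5B of complex IV (0.23 ± 0.04) rose too, COX5B without a call after slippage (0.13). None of these named respiratory rises, NDUFV1 included, passed when a change of at least 1.2-fold was required.

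Cytosolic ribosomal protein genes followed, 36 of 79 higher and none lower in the mean (median 0.08), against 4.46% higher over all tested genes. Here the routes were unequal, with 54 higher and 1 lower after fusion, 8 higher and none lower after slippage, 12 higher and 3 lower after cytokinesis failure, and 5 higher in all 3. Over all tested genes, 5.33% were higher after fusion, 1.53% after slippage, 8.37% after cytokinesis failure and 0.68% in all 3. RPL35 rose by 0.25 ± 0.03, and did not pass when a change of at least 1.2-fold was required. Such genes are short and have many pseudogenes, which makes their values uncertain. Genes called higher in the mean had a median log2 CPM of 6.65, against 4.82 over all tested genes, and RPL35 averaged 9.74. How far a high level adds to the share called was not tested.

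The aldo-keto reductases AKR1C1, AKR1C2 and AKR1C3, which reduce steroids and aldehydes and lie side by side on chromosome 10, were lower in all 3 populations. AKR1C2 stood at 342, 367 and 353 CPM in the controls, 257, 261 and 258 after fusion, 300, 292 and 294 after slippage, and 166, 176 and 165 after cytokinesis failure, 4 levels without overlap (mean -0.59 ± 0.04, adjusted p = 9.25e-24). AKR1C1 fell by 1.09 ± 0.12 and AKR1C3 by 0.68 ± 0.09, and reads may be split among these near-identical genes. Of the 32 tested NRF2 targets and drug-metabolism genes, 9 fell and 1 rose (median -0.05).

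These genes lie in a longer stretch of lower transcripts. The stretch, picked after the values were seen because all 3 population medians in its running windows of 31 genes were at or below -0.1, ran over first-gene starts from 130088 to 18659431 on chromosome 10 and held 63 tested genes. Their median change was -0.11 after fusion, -0.14 after slippage, -0.24 after cytokinesis failure and 0.014 in MDA-MB-231. In the mean 16 of the 63 fell and none rose, among them KLF6 and GTPBP4 beside the AKR1C genes. Over all tested genes 5.22% fell. Selection for low medians favours falls among the genes of a stretch, so the counts here and on chromosome 4 are a description. A stretch of chromosome 4 from 119296419 to 151099628 held 43 tested genes with medians of -0.11, -0.13 and -0.16, 7 lower and none higher. Further such windows reached the end of the chromosome, and the last stretch, from 169729470 to 189940872, held 34 tested genes with medians of -0.15, -0.16 and -0.21, 6 lower and 2 higher. Gene copy number was not analysed here, and whether it moves with these medians was not tested. Of 10515 windows, 59 had all 3 medians at or below -0.1 and 15 had all 3 at or above 0.1. Those on the higher side lay on chromosomes 11 and 20.

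**Figure D4:**
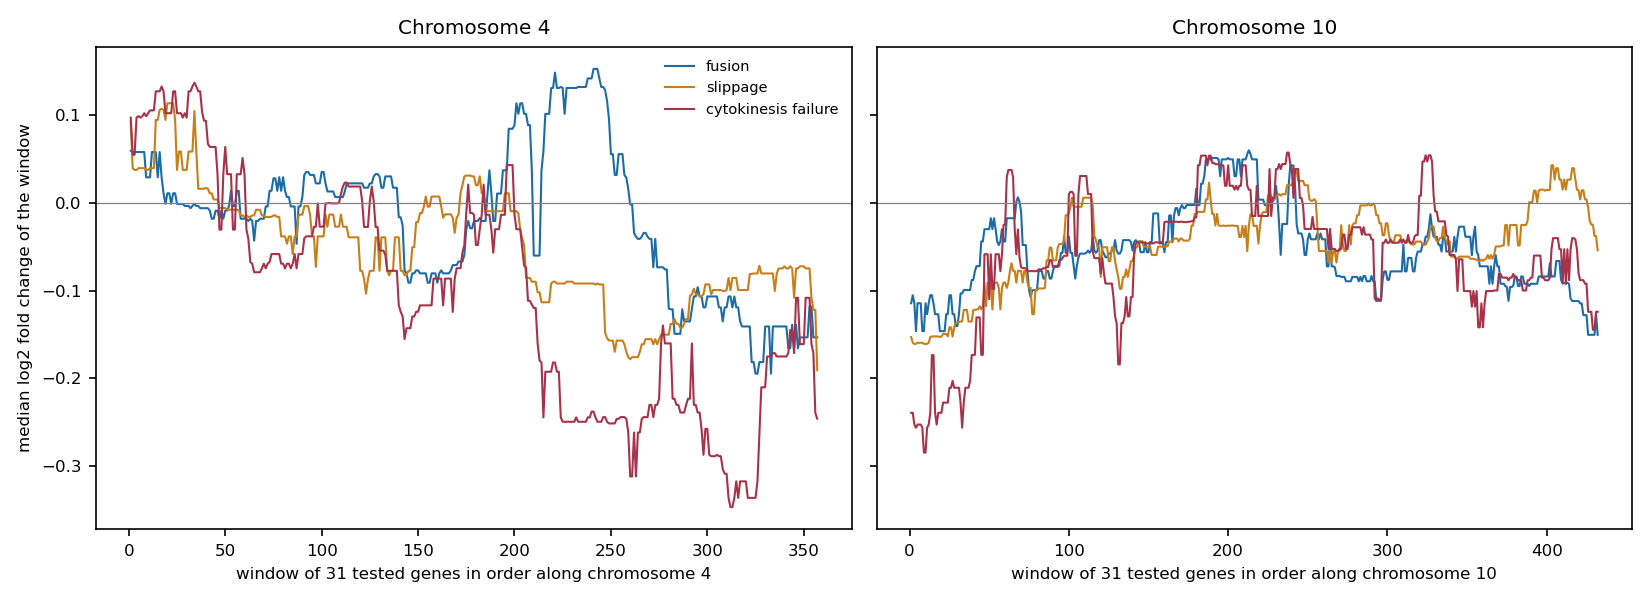
Running medians of the log2 fold change against control over windows of 31 neighbouring tested genes are drawn in order along chromosomes 4 and 10, 1 line per doubled HCC1806 population; neighbouring windows share genes and all lines share the controls. The first windows of chromosome 10 and the last ones of chromosome 4 lie below 0 in all 3 populations, while fusion goes above 0 in the middle of chromosome 4.

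Other fixed lists had the following calls in the mean, where 4.46% of all tested genes rose and 5.22% fell. Of 34 heat shock and folding genes 8 fell and 1 rose, of 30 TGF-beta and activin genes 10 fell and 3 rose, of 34 YAP and TAZ genes 5 fell and 1 rose, and of 28 Wnt genes 7 fell and 2 rose, SOX2 being 1 of the risers. Cyclins and their inhibitors had 4 falls and 2 rises among 21, glycolysis 3 and 3 among 22, the unfolded protein response 2 and 2 among 26, MHC class I genes 1 and 1 among 18, and retinoid and lipid handling 2 and 2 among 14. Cholesterol synthesis had 3 rises and no fall among 29. S100 genes had 3 falls and no rise among 11.

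The mean hides differences among routes. The 3 doubled populations differed among themselves at 2312 genes (20.2%), which included 532 of the 1111 mean calls, 21 of the 78 shared risers and 39 of the 70 shared falls. Calls between pairs numbered 1058 for slippage against fusion (9.23%), 2055 for cytokinesis failure against fusion (17.9%) and 780 for cytokinesis failure against slippage (6.8%). Cytokinesis failure had the largest change for 55 of the 70 shared falls, whose median was -0.43 after fusion, -0.39 after slippage and -0.67 after cytokinesis failure. Among shared risers the medians were 0.32, 0.28 and 0.31.

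By the smallest p for differences, SERPINB2, KRT14, AKR1C2 and the complement inhibitor CD59 were among the 5 most unequal of the shared genes. CD59 stood at 1128 to 1138 CPM in the controls, 990 to 1009 after fusion, 1039 to 1048 after slippage and 760 to 816 after cytokinesis failure. By the largest p, KHK, NDUFV1, the protease CAPN1 (0.22 ± 0.04), TSSC1 (0.31 ± 0.07) and C11orf49 (0.53 ± 0.11) were the most even. C11orf49 stood at 19.7 to 23.9 CPM in the controls and at 28.9 to 33.3 CPM in all 9 doubled libraries.

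At 78 genes (0.68%), 2 populations were called in opposite directions, 73 of these between fusion and cytokinesis failure. IGFBP3, a carrier of insulin-like growth factors, stood at 296, 299 and 300 CPM in the controls, 230, 217 and 248 after fusion, 399, 368 and 386 after slippage, and 570, 507 and 531 after cytokinesis failure. Its mean rise of 0.28 ± 0.04 was called, and without the cytokinesis failure population the change was -0.0020. The deiodinase DIO2 changed by -1.31 after fusion and 0.97 after cytokinesis failure with a mean of 0.03 ± 0.10. The hyaluronan synthase HAS2 went the other way, 0.48 after fusion, -0.82 after slippage and -2.11 after cytokinesis failure. FYB, MEST, OLR1, CRIP1 and TPM1 completed the 8 named by the rule. TPM1 (0.16 ± 0.05 in the mean) no longer passed when control replicate 2, control replicate 3 or fusion replicate 2 was left out (adjusted p from 0.0515 to 0.0797).

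In MDA-MB-231, the same contrast gave 692 calls among 11424 genes (6.06%), and the change of the mean differed between the lines at 673 of 12563 genes (5.36%; edgeR fit of all 24 libraries). Of the 78 shared risers of HCC1806, 73 were tested in MDA-MB-231, where 1 rose and 5 fell, with a median of -0.05. Of the 70 shared falls, 54 were tested there, where 12 rose and 5 fell, with a median of 0.08. The line difference was called for 40 of the 78 risers, all with the higher change in HCC1806, and for 41 of the 70 falls, all with the lower change in HCC1806. The shared genes were chosen for their change in HCC1806, which favours that direction, so these counts are a description.

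Named single genes showed the size of the difference. CDKN1A changed by -0.82 in HCC1806 and by 0.50 in MDA-MB-231, where it rose, a difference of -1.32 ± 0.10 (adjusted p = 2.88e-18). G0S2 differed by -2.10 ± 0.14 (adjusted p = 2.92e-21) and LAMB3 by -1.02 ± 0.07 (adjusted p = 1.58e-19), and both rose in MDA-MB-231, by 0.62 and 0.34. CD59 (-0.52 ± 0.05) and the orphan receptor GPR153 (-1.46 ± 0.12) were the other 2 falling genes with the smallest p. On the rising side, KRT7 differed by 0.64 ± 0.05 (adjusted p = 2.44e-16), and RHOBTB3 by 0.42 ± 0.05. The chaperone clusterin (CLU, 0.73 ± 0.09), the growth factor midkine (MDK, 0.68 ± 0.08) and the junction protein PLEKHA7 (1.10 ± 0.14) differed too. In HCC1806 MDK and PLEKHA7 no longer passed in the mean when control replicate 3 was left out (adjusted p = 0.0808 and 0.0666), that of MDK also without control replicate 1 (adjusted p = 0.0687) and that of PLEKHA7 without control replicate 2 (adjusted p = 0.0806).

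By list, the line difference was called for 10 of the 20 immediate early genes, 6 of the 19 ERK feedback genes and 9 of the 25 protease genes, each lower in HCC1806. It was called for 15 of 76 respiratory genes, 13 higher and 2 lower in HCC1806, and for 6 of 66 mitosis genes, all higher in HCC1806. In MDA-MB-231 itself the immediate early list had 2 rises and 1 fall among 19 tested, and the mitosis list 4 rises and 3 falls among 65. AREG changed by 0.02 there and MYC by 0.05, neither called.

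**Figure D5:**
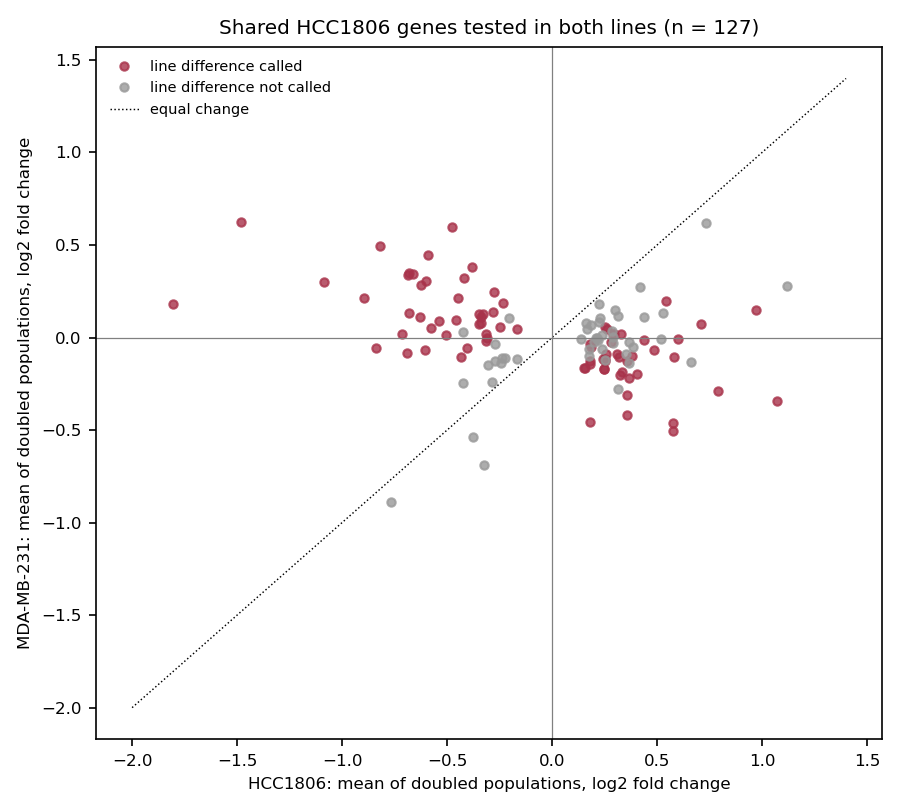
The mean log2 fold change of the doubled populations against control is plotted for HCC1806 (horizontal) and MDA-MB-231 (vertical) for the 127 shared HCC1806 genes tested in both lines, red where the line difference was called and the dotted line marking equal change. Most points spread around 0 on the MDA-MB-231 axis, where 1 riser rose and 5 fell, and 12 of the falling genes rose and 5 fell.

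The calls rest on replicates within populations. With counts summed so that each population was 1 sample, no gene passed in edgeR (424 genes at an unadjusted p below 0.05, 117 of the 148 shared genes among them). That fit leaves 1 control sample, assumed to vary like the 3 doubled ones. With the 9 doubled libraries as 1 group, so that differences among routes count as spread, 200 genes were called (108 higher and 92 lower), 117 of the 148 shared genes among them; BCAM, SNCG, ELF3, EGR1, G0S2, CDKN1A and the mitotic genes named above were called and SPANXD, DHRS9, PTGS2, SERPINB2, KRT14, LAMB3, AKR1C1, AKR1C2, AKR1C3, AREG, FOSL1 and MYC were not. Requiring at least 1.2-fold left 103 calls, 15 higher and 88 lower.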

How the data were processed

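Polyadenylated RNA of 24 samples was read as 3′ TAGseq, and 12 samples were tested here. The authors aligned reads with STAR and quantified genes with Salmon on GRCh38, per the submitters' processing notes. Versions, annotation, trimming and strand setting are not given in the sources used here. The deposited tables hold estimated counts, of which 4.41% were not whole and were rounded, and TPM, which the authors deposited beside them. Mitochondrially encoded genes and low-pass genome sequencing were not analysed here. Each library held 3060622 to 4030297 estimated counts, and few counts limit the precision of low genes.

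Genes were filtered with filterByExpr (11467 kept), normalised by TMM and fitted with edgeR 4.0.16 (R 4.3.3), using the robust quasi-likelihood F-test on the 4 HCC1806 groups. The contrast was the equally weighted mean of 3 populations minus control, with Benjamini-Hochberg adjustment over all tested genes. All adjusted p-values, without-replicate refits included, come from this edgeR fit unless another tool is named. Changes among the 3 populations were tested together, and the line difference was tested in a fit of all 24 libraries. The fits were tested on simulated data. Where counts are given per library they are TMM-scaled CPM.

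The named genes were the 12 risers and 12 falling genes of largest mean change among genes called in all 3 populations without overlap, an average log2 CPM of 2 being the floor, up to 4 genes of each list by smallest adjusted p, 11 fixed genes, the most even, most unequal and opposite genes, and 5 per direction by line difference. Some genes that these rules name are not reported here. Those members and lists were chosen with earlier results of these data known. Alternatives were DESeq2 1.42.0, RLE factors, no filter, a stricter filter, limma 3.58.1 on log2(TPM + 1) and log2(TPM + 0.1), a replicate block, each library or population left out, other groupings of libraries, and a fold of at least 1.2. The fits on log2 CPM, with and without correction for GC content and length, were chosen after seeing the data.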

Additional observations from a re-analysis of the deposited data

Results flagged for a closer look

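The change of the doubled mean against control differed between HCC1806 and MDA-MB-231 at 673 of 12563 genes (5.36%). This was a test of the difference itself, in the edgeR fit of all 24 libraries. The named genes described here with such a difference numbered 49. Most genes were named for their change in HCC1806, and some for the line difference itself. That choice favours a called difference and its direction, so the 49 are a description. Each value below is the HCC1806 change minus the MDA-MB-231 change on the log2 scale.

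Among signalling and early response genes the difference was -1.99 for EGR1, -0.63 for MYC, -0.63 for FOSL1, -0.51 for IER3 and -1.04 for TNFAIP3. For the EGF receptor ligands it was -0.73 for AREG, -0.37 for EREG and -0.49 for TGFA. For ERK feedback genes it was -0.90 for DUSP6, -1.03 for DUSP5, -0.74 for DUSP4 and -0.55 for PHLDA1. These 12 genes all had the lower change in HCC1806.

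Among secreted and matrix genes the difference was -3.55 for MMP1, -0.61 for PLAU, -2.10 for PTGS2, -1.11 for FN1 and -0.94 for HAS2. PTGS2 was too low to be tested in MDA-MB-231 alone, and its difference had a standard error of 0.53. Among adhesion and surface genes it was -1.02 for LAMB3, -0.45 for CD44, -0.52 for CD59 and -1.46 for GPR153. It was -2.10 for G0S2, -1.32 for CDKN1A, -1.04 for AKR1C2 and -0.81 for AKR1C3. MMP1 had the largest difference of the 49.

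The change was higher in HCC1806 for SNCG (1.42), APOBEC3B (0.82), HSPG2 (1.08), CRYBB2P1 (0.64), ZNF704 (0.61), UCA1 (1.08) and GNB1L (1.03). Among genes of the luminal and simple epithelial list it was higher by 0.69 for AGR2, 0.64 for KRT7 and 0.21 for KRT19. Of genes outside the epithelial lists and named by the line difference, it was higher by 1.10 for PLEKHA7, 0.73 for CLU, 0.68 for MDK and 0.42 for RHOBTB3. Among mitotic and centrosome genes it was higher by 0.20 for CCNB1, 0.28 for DLGAP5, 0.40 for BUB1 and 0.78 for CNTROB. Among respiratory and ribosomal genes it was higher by 0.52 for NDUFB10, 0.60 for NDUFV1, 0.35 for COX5B and 0.37 for RPL35. IGFBP3 (0.29) and TPM1 (0.43), which moved in opposite directions among routes, also differed.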

How the results depend on the processing

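The 1111 calls of the mean numbered 517 with DESeq2, 499 on log2(TPM + 1), 489 on log2(TPM + 0.1), 733 without the cytokinesis failure population, 200 with the 9 doubled libraries as 1 group, 103 at a fold of at least 1.2 (14.6% of them higher against 46.1%) and 0 with counts summed per population. Leaving out 1 library gave 721 (control replicate 1) to 1107. The 148 shared calls numbered 52 with DESeq2, 35 and 32 on the TPM scales, 74 in the fit of all 24 libraries, and 81 to 141 with 1 library left out. With a population left out, agreement of the remaining pair is a looser criterion by construction, and it was met by 264 genes without fusion and 451 without slippage. Differences among populations numbered 1118 with DESeq2 and 1412 and 1399 on the TPM scales, against 2312. The line difference numbered 430 with DESeq2 and 422 on log2(TPM + 0.1), against 673. The cause of the other shifts was not tested. RLE factors, filters and log2 CPM changed the count of mean calls by less than 1.5 times.

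With the replicate number as a block, the mean gave 1098 calls, the shared genes numbered 144, differences among populations 2286 and the line difference 646. To check for pairing, the mean of each population was subtracted from log2 CPM gene by gene, and libraries of different populations were correlated. What was left correlated at -0.097 to 0.077 for the same number (median -0.041) and -0.157 to 0.201 for different numbers (median 0.015). Of 12 libraries, 2 had their highest mean correlation with their own number, so no pairing by number was seen.

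Leaving out a population turned 6 named genes. Without fusion DKK3 changed by 0.26, and without cytokinesis failure IGFBP3 by -0.0020, TPM1 by -0.088, MEST by -0.19, DIO2 by -0.44 and CRIP1 by -0.056. Of 128 named genes called in the mean, 22 lost the call when some single library was left out, 24 without cytokinesis failure, 12 without fusion, 4 without slippage, 75 with the 9 doubled libraries as 1 group and all 128 with counts summed per population. With 3 libraries per population, counts near those of SPANXD or TRIML2 leave wide errors.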
